A study of Mus musculus with 6 samples.

Results

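The genes described here mark whether a cell is in an epithelial or a mesenchymal state. They are 10 genes, chosen by symbol from the 55385 genes counted in each library: Cdh1, Epcam, Esrp1, Vim, Cdh2, Zeb1, Zeb2, Snai2, Twist1 and Twist2. All 10 passed the filter on low counts, which left 19427 genes to be tested. RNAseq was done on tumors of female NeuT/ATTAC mice, with 3 control libraries and 3 libraries from mice given DMHCA, a sterol-like ligand that activates LXR, a nuclear receptor of lipid metabolism. The mice of both groups had 2 transgenes. MMTV-NeuT supplies rat ErbB2[V664E], an oncogenic receptor that signals without ligand, and in FAT-ATTAC the FABP4 promoter, active in fat cells, drives caspase-8 joined to FKBPv. In both groups AP20187, which joins the fusion protein into active dimers and so ablates part of the mammary fat, was injected at 0.4 mg/kg, 3 times per week, from 6 weeks of age. The DMHCA group also ate a diet with 0.05% DMHCA (100 mg/kg) from 8 weeks of age. The control label can be read as AP20187 with vehicle or as vehicle alone. The study's description of its control tumors as coming from mice given AP20187 was followed. The labels name the tissue as fibrotic mammary gland, while the study describes tumors.

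Epithelial cells hold to their neighbours through E-cadherin, the product of Cdh1, and carry the adhesion molecule Epcam on their surface. In an epithelial-mesenchymal transition, transcription factors of the Zeb, Snail and Twist families repress such genes, the splicing regulator Esrp1 is lost, and the filament protein vimentin (Vim) and N-cadherin (Cdh2) appear. Fibroblasts and other stromal cells of a mammary tumor carry the mesenchymal genes without having been epithelial, and leukocytes also carry Vim and Zeb2. In bulk samples, fewer cells of a type and less RNA per cell cannot be told apart.

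Control libraries 1, 2 and 3 held 53939201, 63420620 and 46358654 rounded expected counts. The totals of the DMHCA libraries were 55539411, 52755446 and 52330938. DMHCA libraries 1 and 3 were nearly the same. The coefficient of variation between them beyond sampling was 0.0327, against 0.376 to 0.579 in the other pairs within a group, and 18.1% of genes differed by a chi-square test, against 82.1% to 87.8%. They were therefore counted as 1 sample, with their counts summed, which leaves 3 control and 2 DMHCA samples. Values are given as CPM, counts scaled to library size with TMM factors, which compare a gene between libraries, or as TPM, which also allow for gene length and compare genes with each other. Tests are edgeR's two-sided quasi-likelihood F-test, with p adjusted by Benjamini-Hochberg over all genes tested.

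The tissue labels were checked against markers. The luminal keratin genes Krt8 and Krt18 were abundant in every library, at 883 CPM or more and at 819 CPM or more, while the basal keratin genes Krt5 and Krt14 lay at 23.6 CPM or less. The 7 luminal epithelial markers, with Krt18 the most abundant, had a sum of 2430.2, 3004 and 2415 CPM in the controls and of 3480.0, 2666 and 3562 CPM with DMHCA. This sum was mostly Krt8 and Krt18, the 2 markers of the list with a higher mean with DMHCA, where 48% of all genes tested had a higher mean. The other 5 had a lower mean, and the median log2 fold change of the list was -1.19, or -0.21 without control library 3, where 3 of the 7 were higher. By edgeR 0 passed the adjusted threshold, and 0 higher genes and 1 lower gene had an unadjusted p under 0.05, beside 3.53% and 4.08% of all genes tested. The groups did not overlap for 1 higher gene, Krt8, and 1 lower gene, Krt7, beside 13.8% and 12.2% of all genes. Krt8 was at 946, 1065 and 883 CPM in the controls and at 1545, 1231 and 1598 CPM with DMHCA, and Krt7 at 172, 366 and 99.9 CPM against 58.3, 71.1 and 56.3 CPM. Krt19, named like these after its values were seen, was at 36.3, 5.94 and 387 CPM against 16.5, 1.18 and 16.6 CPM, with overlap. Krt18, Muc1, Cited1 and Prlr also overlapped. Erbb2, to which reads of the transgene can also be assigned, was at 1428, 824 and 716 CPM in the controls and at 1399.9, 1932 and 1349 CPM with DMHCA. The groups overlapped for Erbb2, with an adjusted p of 0.67.

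Some libraries stood apart. Control library 1 held 5079.5 CPM of the 5 salivary gland markers, led by Bpifa2, while the other libraries held 61.1 CPM or less and Muc19 was at 0 in some of them. Control library 3 was the highest control for all 4 pan-leukocyte, all 5 B cell, all 5 T cell, all 6 adipocyte, all 7 basal or myoepithelial and all 5 mammary secretory markers. The mammary secretory markers summed to 17451 CPM in control library 3, led by Csn2, against 1440.1 and 42.8 CPM in control libraries 1 and 2 and 1827, 39 and 1898 CPM in DMHCA libraries 1, 2 and 3. With DMHCA the sum was mostly Lalba in libraries 1 and 3, which held 1654 and 1730.2 CPM of it and 44.5 and 36.2 CPM of Csn2. Lalba had a higher mean with DMHCA and the other 4 markers a lower one, and all 5 overlapped between the groups. The 5 skeletal muscle markers, led by Acta1, summed to 487, 975 and 479.5 CPM in the controls and to 694, 165 and 761 CPM with DMHCA.

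By TPM the order of the 10 genes was the same in both groups. Epcam led with 1252 ± 286 TPM in control tumors (SD, n = 3) and 1349 ± 204 TPM with DMHCA (SD, n = 2), followed by Vim with 292 ± 73.9 and 256 ± 46.9 TPM. Cdh1 came next with 97.7 ± 16.7 and 107 ± 30.8 TPM, and then Esrp1 with 49.5 ± 11.4 and 89.2 ± 12.4 TPM. These 4 genes stood well above the transcription factors. Zeb2 had 6.75 ± 3.7 and 4.49 ± 0.173 TPM, Twist1 4.57 ± 2.24 and 4.1 ± 1.31 TPM, and Zeb1 2.93 ± 2.03 and 2.71 ± 0.601 TPM. Snai2 followed with 1.95 ± 1.64 and 1.4 ± 0.711 TPM, Twist2 with 1.84 ± 1.17 and 0.628 ± 0.138 TPM, and Cdh2 was the lowest with 0.577 ± 0.191 and 0.385 ± 0.134 TPM. In the controls the mean ± SD ranges of neighbours overlapped from Zeb2 down to Cdh2, whereas those of Epcam, Vim, Cdh1 and Esrp1 did not overlap that of the next gene. With DMHCA the ranges of Cdh1 and Esrp1 overlapped. The level of Cdh1 was 115 to 263 times that of Cdh2 in the control libraries and 169 to 445 times with DMHCA.

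**Figure D1:**
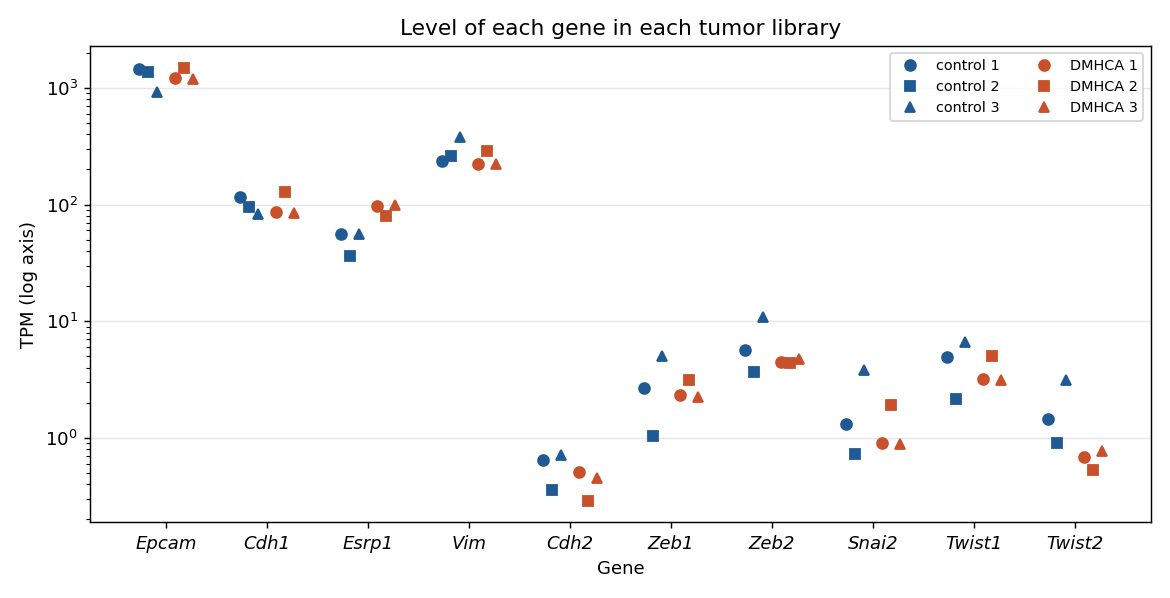
TPM of the 10 genes in each of the 6 libraries, on a log axis, with controls in blue and DMHCA in orange. Each point is 1 library. Epcam, Vim, Cdh1 and Esrp1 lie above 30 TPM in every library and the other 6 genes below 11 TPM, and control library 3 is the highest for Zeb1, Zeb2, Snai2, Twist1, Twist2 and Cdh2.

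Of the 10 genes, 9 had a lower fitted value with DMHCA and 1, Esrp1, a higher one, although Cdh1, Epcam and Zeb1 were higher on the log2(TPM + 1) scale. Of all 19427 genes tested, 9328 (48%) had a higher fitted value. By edgeR, 0 of the 10 had an adjusted p under 0.05. Among all genes tested 0 (0%) passed in either direction by edgeR, 1478 (7.61%) had an unadjusted p under 0.05. DESeq2 called 246 (1.26%) of the 19586 genes it tested on the 5 samples and 839 (3.9%) of 21540 on the 6 libraries as separate samples. DESeq2 called 0 of the 10 genes in either fit. An unadjusted p under 0.05 was found for Esrp1 in the higher direction, as for 3.53% of all genes, and for Twist2 in the lower direction, as for 4.08%. It did not stay under 0.05 in every alternative. By edgeR the unadjusted p of Esrp1 was 0.125 without control library 1, and that of Twist2 was 0.114 without control library 3. By DESeq2 on the 5 samples the unadjusted p was 0.0505 for Esrp1 and 0.0141 for Twist2. On the 6 libraries it was 0.0102 and 0.00481 by DESeq2, but that fit counts the nearly identical DMHCA libraries 1 and 3 as separate samples. The groups did not overlap for the same 2 genes, 1 higher, as for 13.8% of all genes, and 1 lower, as for 12.2%. For groups that did not overlap, 1 of 10 in each direction was near the share of all genes. The median log2 fold change of the 10 was -0.38, against -0.03 over all genes tested. Without control library 3 it was -0.11, with 5 of the 10 genes higher and 5 lower, against 0.01 over all genes. With upper quartile scaling these medians were -0.52 and -0.13, and on the log2(TPM + 1) scale -0.06 for the 9 genes above its filter and 0.20 over all genes.

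Epcam encodes a cell surface adhesion molecule of epithelia (ENSMUSG00000045394, chromosome 17 of GRCm38, 87635979 to 87651129). It was at 1619, 2059 and 1116 CPM in control libraries 1, 2 and 3 and at 1390.2, 1561 and 1364 CPM in DMHCA libraries 1, 2 and 3. The DMHCA values lay inside the range of the controls, whose lowest value was in control library 3. This gave a log2 fold change of -0.12 (SE, the standard error, 0.39, 95% interval -1.07 to 0.83, adjusted p 0.941 by edgeR). It was 0.10 without control library 2, the highest control, and 0.13 on the log2(TPM + 1) scale, where the median of all genes was 0.20.

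Cdh1, which encodes E-cadherin (ENSMUSG00000000303, chromosome 8, 106603351 to 106670246), was at 351, 385 and 270.1 CPM in the controls and at 268, 366 and 263 CPM with DMHCA. The groups overlapped, and DMHCA library 2 stood among the higher controls while DMHCA libraries 1 and 3 lay just under the lowest. Between groups the log2 fold change was -0.09 (SE 0.32, 95% interval -0.85 to 0.67, adjusted p 0.95 by edgeR). It turned to 0.02 without control library 2 and to 0.12 on the log2(TPM + 1) scale, where the median of all genes was 0.20. Among all pairs of the 10 genes, Cdh1 and Epcam had the closest profiles, with a root mean square distance of 0.148 between their centred log2 values over the 5 samples. The 3 other tested genes nearest to Cdh1 were Mex3c, Mical3 and R3hdm4, at distances of 0.0283, 0.0296 and 0.03, where the median gene was at 0.507.

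Esrp1 encodes an RNA-binding protein that keeps the epithelial splice forms of many transcripts (ENSMUSG00000040728, chromosome 4, 11331933 to 11386783). It was at 136, 121 and 152 CPM in control libraries 1, 2 and 3 and at 244, 184 and 247 CPM in DMHCA libraries 1, 2 and 3. Every DMHCA library lay above every control, and the lowest of them was DMHCA library 2. The means were 136 ± 15.4 CPM (SD, n = 3) and 215 ± 43.4 CPM (SD, n = 2), a difference of 1.57-fold. The log2 fold change of 0.65 (SE 0.27) had an unadjusted p of 0.0499 and an adjusted p of 0.644 by edgeR, so it did not pass. It stayed between 0.55 and 0.89 in all 17 alternatives, with adjusted p from 0.129 to 0.959. The exons of Esrp1 overlap those of Gm26663 on the opposite strand, and since the sources used here do not say whether strand was used in counting, values of genes with such a partner are uncertain. Relative to Cdh1 in the same library, the TPM of Esrp1 was 0.481, 0.385 and 0.681 in the controls and 1.12, 0.624 and 1.17 with DMHCA. This ratio overlapped between the groups, through DMHCA library 2 and control library 3.

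Vim encodes vimentin, the intermediate filament of mesenchymal cells (ENSMUSG00000026728, chromosome 2, 13573927 to 13582826). It was at 245, 379.9 and 452 CPM in the controls and at 234, 277 and 242 CPM with DMHCA. Control library 1 lay among the DMHCA libraries and control libraries 2 and 3 above them. With all samples the log2 fold change was -0.48 (SE 0.35, 95% interval -1.33 to 0.37, adjusted p 0.716 by edgeR), and -0.28 without control library 3. The ratio of Vim to Epcam by TPM was 0.163, 0.192 and 0.406 in the controls and 0.184, 0.194 and 0.186 with DMHCA, so that control library 3 alone stood apart. The 3 genes nearest to Vim in profile were Phtf1os, Pfkfb1 and Slc7a11, at distances of 0.0238, 0.0407 and 0.0661, where the median gene was at 0.589.

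Cdh2, the gene of N-cadherin (ENSMUSG00000024304, chromosome 18, 16588877 to 16809246), was at 1.82, 1.43 and 2.21 CPM in the controls and at 1.5, 0.771 and 1.44 CPM with DMHCA. These values rest on 41 to 110 counts per library. DMHCA library 2 was the lowest, and the groups overlapped narrowly because DMHCA libraries 1 and 3 lay just above control library 2. For Cdh2 the log2 fold change was -0.69 (SE 0.56, adjusted p 0.737 by edgeR), and -0.26 without DMHCA library 2, its lowest library.

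Zeb1 and Zeb2 encode zinc finger repressors of Cdh1. Zeb1 (ENSMUSG00000024238, chromosome 18, 5591860 to 5775467) was at 9.05, 5.29 and 20.3 CPM in control libraries 1, 2 and 3 and at 7.88, 9.85 and 8.77 CPM in DMHCA libraries 1, 2 and 3. Zeb2 (ENSMUSG00000026872, chromosome 2, 44983632 to 45117395) was at 22.9, 14.9 and 38.6 CPM in the controls and at 18.6, 18.8 and 20.2 CPM with DMHCA. For both genes control library 3 was the highest library and control library 2 the lowest, with all DMHCA libraries between them. The log2 fold change of Zeb1 was -0.35 (SE 0.60, adjusted p 0.873 by edgeR). It turned to 0.34 without control library 3 and to 0.05 on the log2(TPM + 1) scale, where the median of all genes was 0.20. For Zeb2 the log2 fold change was -0.42 (SE 0.43, adjusted p 0.783 by edgeR), and 0.01 without control library 3. Exons of Zeb1 overlap Gm10125 on the opposite strand, which held 117, 100 and 327 counts in the controls and 119, 96 and 107 with DMHCA. Zeb2 likewise overlaps Zeb2os, with 118, 129 and 196 counts in the controls and 110, 62 and 83 with DMHCA.

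Snai2 encodes the zinc finger factor Slug, which is found in basal mammary cells (ENSMUSG00000022676, chromosome 16, 14705852 to 14709385). It was at 1.72, 1.29 and 5.41 CPM in the controls and at 1.23, 2.35 and 1.19 CPM with DMHCA. Control library 3 was above all others, and DMHCA library 2 was above control libraries 1 and 2. Its log2 fold change was -0.66 (SE 0.78, adjusted p 0.809 by edgeR), and it turned to 0.24 without control library 3.

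Twist1 and Twist2 encode closely related helix-loop-helix factors of mesenchymal cells. Twist1 (ENSMUSG00000035799, chromosome 12, 33957671 to 33959829) was at 5.08, 3.01 and 7.38 CPM in the controls and at 3.39, 4.89 and 3.36 CPM with DMHCA. All DMHCA libraries lay within the range of the controls, and the log2 fold change of -0.32 (SE 0.54, adjusted p 0.869 by edgeR) was 0.02 without control library 3. Twist2 (ENSMUSG00000007805, chromosome 1, 91801461 to 91848028) was at 1.18, 1 and 2.81 CPM in control libraries 1, 2 and 3 and at 0.58, 0.414 and 0.654 CPM in DMHCA libraries 1, 2 and 3. Every DMHCA library lay below every control, and control library 3 stood above the rest. The counts behind these values were 66, 57 and 140 in the controls and 32, 22 and 34 with DMHCA. The log2 fold change of Twist2 was -1.68 (SE 0.69), with an unadjusted p of 0.0477 and an adjusted p of 0.644 by edgeR, so it did not pass. Without control library 3 it was -1.08, and over all alternatives it lay between -1.95 and -0.73, with adjusted p from 0.0849 to 0.959. Its exons overlap Gm29100 on the opposite strand, which held at most 9 counts in a library. By TPM, Twist1 exceeded Twist2 by 3.41, 2.38 and 2.09 times in the controls and by 4.69, 9.49 and 4.1 times with DMHCA.

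**Figure D2:**
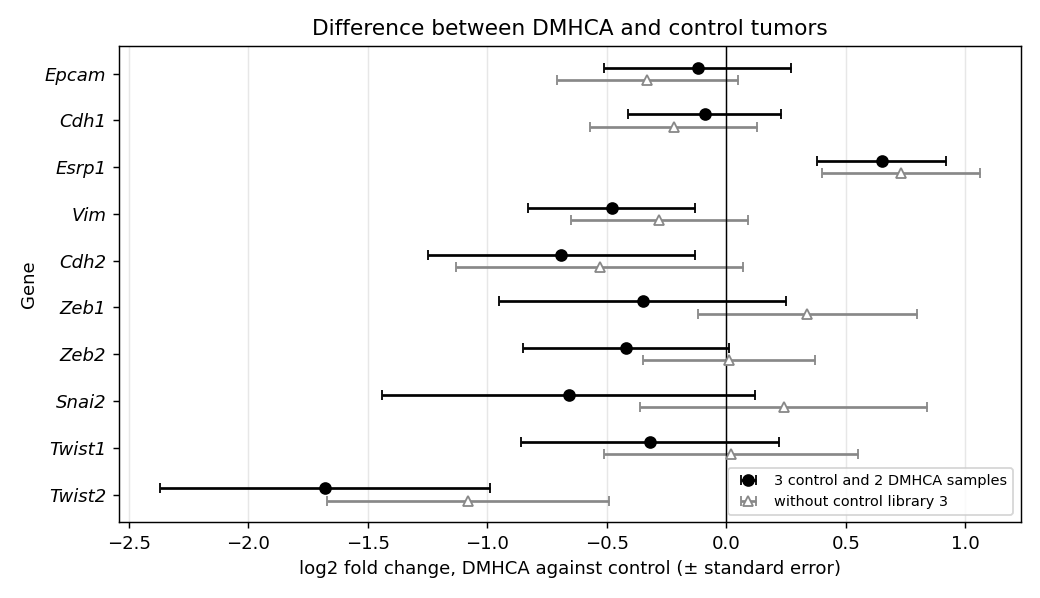
Log2 fold change, DMHCA against control, of each gene from the edgeR fit, with bars for the standard error, over 3 control and 2 DMHCA samples (filled circles) and without control library 3 (open triangles). Zeb1, Zeb2, Snai2 and Twist1 lie below 0 with all samples and above 0 without control library 3, while Twist2 stays below 0 and Esrp1 above 0. Cdh1 and Epcam, below 0 in both, lay above 0 on the log2(TPM + 1) scale, where the median of all genes was 0.20.

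Without control library 3, the fitted values of Zeb1, Zeb2, Snai2 and Twist1 were no longer lower with DMHCA. This library exceeded the mean of control libraries 1 and 2 by 3.6 times for Snai2, 2.83 times for Zeb1, 2.58 times for Twist2, 2.04 times for Zeb2, 1.82 times for Twist1 and 1.45 times for Vim, while Epcam and Cdh1 were at 0.607 and 0.734 times. The 10 fibroblast markers, 8 of them highest in control library 3 among the controls and Col3a1 the most abundant, summed to 2377, 1297 and 3223 CPM in the controls and to 1908, 2084 and 1953 CPM with DMHCA. Of all genes tested 48% had a higher mean with DMHCA, and of these markers 1 had a higher and 9 a lower one. Their median log2 fold change was -0.53, or -0.06 without control library 3, where 4 were higher. The groups did not overlap for 0 higher markers and 1 lower marker, Fap, beside 13.8% and 12.2% of all genes. The 4 pan-leukocyte markers, led by Ptprc, summed to 194, 125 and 694 CPM in the controls and to 141, 104 and 136 CPM with DMHCA. Control library 3 stood out in both lists, as it did for the transcription factors. The 7 macrophage or monocyte markers, led by Lyz2, summed to 652, 589.6 and 1472 CPM in the controls and to 614, 472 and 614 CPM with DMHCA. The B cell markers, led by Cd79a, summed to 37.3, 1.08 and 329.8 CPM in the controls and 2.19, 1.49 and 1.75 CPM with DMHCA, and the T cell markers, led by Cd8a, to 18, 2.41 and 160.0 CPM and 9.96, 5 and 9.71 CPM.

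Control library 3 was also the highest library for basal and for adipocyte markers. The basal or myoepithelial markers, led by Myh11, summed to 40.1, 10.5 and 141 CPM in the controls and to 30.3, 10.3 and 29.9 CPM with DMHCA. The adipocyte markers, led by Fabp4 and with Lep at 0 in a DMHCA library, summed to 135, 95.4 and 628 CPM in the controls and to 39.4, 36.3 and 38.4 CPM with DMHCA. For all 6 adipocyte markers every DMHCA sample lay below every control, as was the case for Twist2 and for 12.2% of all genes. Control library 3 was not the highest for the 6 pericyte or smooth muscle markers, led by Notch3, which summed to 306, 280.0 and 175 CPM in the controls and to 274, 375 and 276 CPM with DMHCA. The 7 endothelial markers, led by Pecam1, summed to 144, 132 and 165 CPM in the controls and to 167, 170.1 and 172 CPM with DMHCA. Of the 7, 4 had a higher and 3, with Pecam1 among them, a lower mean, where 48% of all genes tested had a higher mean. The groups did not overlap for 2 higher and 0 lower endothelial markers, beside 13.8% and 12.2% of all genes. The 5 Schwann cell markers, led by Sox10, which is also a gene of mammary epithelium, summed to 554, 466 and 339.6 CPM in the controls and to 678, 683 and 659 CPM with DMHCA. Of these 5, 2 had a higher and 3 a lower mean, and the groups did not overlap for 2 in each direction. The part of these cell types in the values of the 10 genes was not tested.

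**Figure D3:**
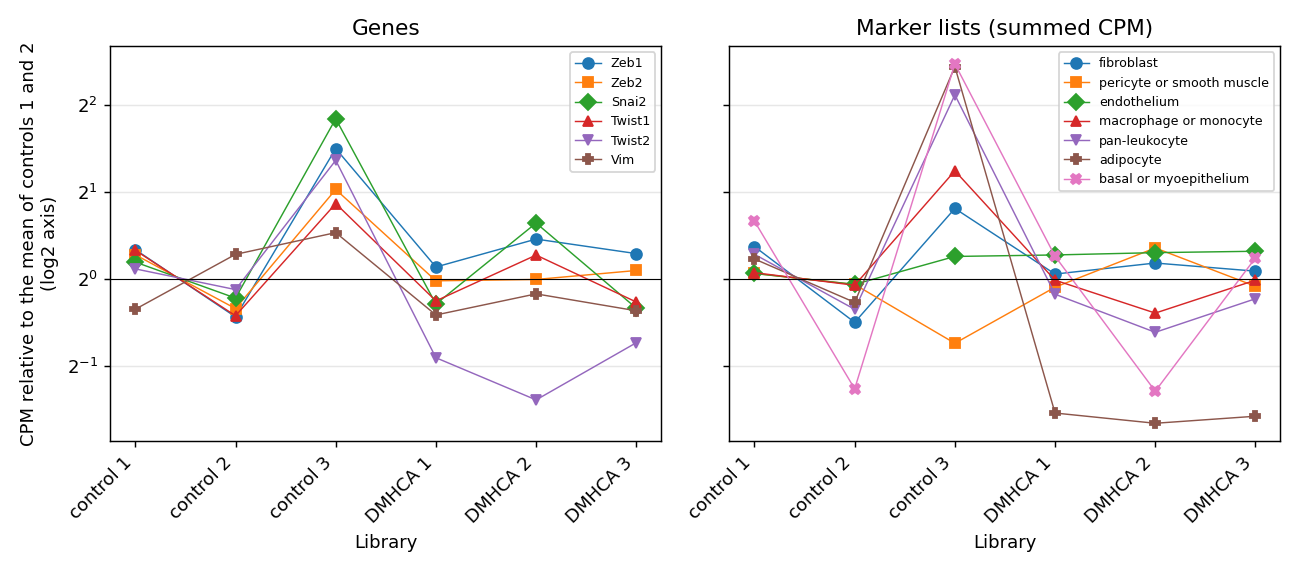
CPM of Zeb1, Zeb2, Snai2, Twist1, Twist2 and Vim (left) and summed CPM of marker lists (right) in each library, relative to the mean of control libraries 1 and 2, on a log2 axis. Lines join the values of 1 gene or list and imply no order of libraries. Control library 3 is the highest library for all 6 genes and for every list drawn except pericyte or smooth muscle and endothelium.

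The regulators and partners of these genes were described from lists of the same pathway. Of 24 genes of epithelial junctions, 18 had a higher and 6 a lower mean with DMHCA, where 48% of all genes tested had a higher mean. The median log2 fold change of the list was 0.25. By edgeR 0 of the list passed the adjusted threshold, with 1 in each direction at an unadjusted p under 0.05. The groups did not overlap for 4 higher genes and 1 lower gene, where 13.8% and 12.2% of all genes did not, and 3.53% and 4.08% had an unadjusted p under 0.05. Ctnnd1, which encodes p120-catenin, a partner of E-cadherin, was at 445, 378 and 272 CPM in the controls and at 604, 637 and 603 CPM with DMHCA (log2 fold change 0.76, SE 0.33). All of its DMHCA libraries lay above all controls. The tight junction gene Cldn4 was at 158, 159.9 and 71.5 CPM in the controls and at 60.4, 58.8 and 63.2 CPM with DMHCA (log2 fold change -1.11, SE 0.41), and the polarity gene Pard6b at 12.3, 8.95 and 11.2 CPM and at 13.2, 38 and 13.2 CPM (log2 fold change 1.24, SE 0.48). The lowest control for Cldn4 was control library 3, and the value of Pard6b rested on DMHCA library 2. P-cadherin (Cdh3) was at 3.88, 0.969 and 4.94 CPM in the controls and at 1.52, 4.59 and 1.44 CPM with DMHCA, which overlapped.

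Of 17 epithelial regulators, 10 had a higher and 7 a lower mean, where 48% of all genes tested had a higher mean. The median of the list was 0.40, 0 passed the adjusted threshold by edgeR, and 1 higher and 0 lower genes had an unadjusted p under 0.05. The groups did not overlap for 5 higher and 0 lower genes, beside 13.8% and 12.2% of all genes, and the shares at an unadjusted p under 0.05 were 3.53% and 4.08% of all genes. Ovol1, a zinc finger factor of epithelia, was at 4.51, 4.05 and 3.16 CPM in the controls and at 8.21, 10.5 and 8.38 CPM with DMHCA (log2 fold change 1.26, SE 0.41, unadjusted p 0.0193 and adjusted p 0.644 by edgeR). Esrp2, the paralog of Esrp1, was at 81.7, 64.6 and 51 CPM in the controls and at 93.5, 104 and 89.6 CPM with DMHCA (log2 fold change 0.57, SE 0.28). Both genes, like Esrp1, had every DMHCA library above every control. The same held for Grhl2, an activator of Cdh1, at 101, 81.5 and 53.7 CPM against 111, 109 and 116 CPM, and for the protease inhibitor gene Spint1, at 124, 106 and 58.7 CPM against 139, 166 and 135 CPM. Ovol2 overlapped, at 7.98, 8.74 and 5.15 CPM against 5.04, 5.77 and 5.21 CPM. Control library 3 was the lowest library for Esrp2, Grhl2, Ovol1 and Spint1. For Grhl1, the other regulator without overlap, named after its values were seen, control library 2 was the lowest, at 71.4, 27.8 and 70 CPM in the controls and 93, 74.8 and 88.8 CPM with DMHCA. Without control library 3 the median of the 17 regulators was again 0.40, and that of the junction genes was 0.12.

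Of 15 other transcription factors of the epithelial-mesenchymal transition, 14 were tested, the exception being Gsc. The mean was higher for 6 and lower for 8, where 48% of all genes tested had a higher mean. The median of the list was -0.22, 0 passed the adjusted threshold by edgeR, and 0 higher genes and 1 lower gene had an unadjusted p under 0.05. Without control library 3 the median was -0.14, with 7 higher and 7 lower. The groups did not overlap for 2 higher and 4 lower genes of the 14, against 13.8% and 12.2% of all genes, of which 3.53% and 4.08% had an unadjusted p under 0.05. Klf8 was at 1.16, 1.29 and 1.65 CPM in the controls and at 0.308, 0.282 and 0.327 CPM with DMHCA (log2 fold change -2.18, SE 0.56, unadjusted p 0.00666 and adjusted p 0.644 by edgeR). Tcf4 was at 61.3, 121 and 111 CPM against 67.6, 43.4 and 68.6 CPM, and Hmga2 at 0.894, 2.04 and 0.523 CPM against 0.471, 0.489 and 0.423 CPM. Klf8 and Hmga2 lay lower in every DMHCA library, whereas Tcf4 overlapped through control library 1. Snai1, the paralog of Snai2, was at 4.45, 5.46 and 4.28 CPM in the controls and at 4.47, 11.9 and 4.38 CPM with DMHCA, where DMHCA library 2 alone stood high. Prrx1 was at 16, 12.9 and 26.8 CPM against 15.8, 13 and 17.4 CPM, and like Zeb1, Zeb2, Snai2, Twist1 and Twist2 it was highest in control library 3.

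Of 21 mesenchymal effectors, 7 had a higher and 14 a lower mean, where 48% of all genes tested had a higher mean. The median of the list was -0.18, 0 passed the adjusted threshold by edgeR, and 0 higher and 3 lower genes had an unadjusted p under 0.05. The groups did not overlap for 1 higher and 4 lower genes. Without control library 3 the median was -0.16 over the 20 genes tested. Over all genes the shares without overlap were 13.8% and 12.2%, and those at an unadjusted p under 0.05 were 3.53% and 4.08%. The stromelysin gene Mmp3 was at 35.1, 40.3 and 75.2 CPM in the controls and at 13.4, 9.46 and 14.5 CPM with DMHCA (log2 fold change -2.10, SE 0.44, unadjusted p 0.00239 and adjusted p 0.644 by edgeR). Moesin (Msn), which ties the membrane to actin, was at 214, 317 and 301 CPM against 122, 131 and 119 CPM (log2 fold change -1.14, SE 0.31), and the matrix gene Tnc at 168, 109 and 160.2 CPM against 41.7, 97 and 43.2 CPM (log2 fold change -1.07, SE 0.43). These 3 genes lay lower in every DMHCA library than in every control, and without control library 3 their log2 fold changes were -1.69, -1.08 and -1.0. Fibronectin (Fn1) overlapped, at 289, 543 and 191 CPM against 281, 442 and 289.7 CPM. With upper quartile scaling the medians of the junction, regulator, transcription factor and effector lists were 0.16, 0.30, -0.32 and -0.29. On the log2(TPM + 1) scale they were 0.43, 0.54, 0.51 for the 8 transcription factors above its filter, and -0.07, so the sign of the transcription factor list differed. Over all genes the median was -0.13 with upper quartile scaling and 0.20 on the log2(TPM + 1) scale.

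Zeb and Snail factors bind E-boxes, and the promoters of the members were searched for CACCTG and, for the other strand, CAGGTG. The RefSeq table of promoters on GRCm38.p6 held 5 of the 10 genes, in 8 windows: Epcam, Vim, Zeb2, Twist1 and Twist2. Over the 250 bases before each start, 1 of the 8 windows, that of Epcam, held the motif, as did 17.2% of 32851 windows in the table, and 2.06% of windows held it 2 or more times. The promoter of Epcam (chr17:87635729-87635978, plus strand) held it at 2 places, with first bases 187 and 19 bases before the start. It is shown because Zeb1 and Zeb2 are known to act on epithelial genes through this motif, and that of Twist2 (chr1:91801211-91801460, plus strand) because its groups did not overlap. Capitals mark the motif. A match is a description of the letters and shows no binding.
Epcam: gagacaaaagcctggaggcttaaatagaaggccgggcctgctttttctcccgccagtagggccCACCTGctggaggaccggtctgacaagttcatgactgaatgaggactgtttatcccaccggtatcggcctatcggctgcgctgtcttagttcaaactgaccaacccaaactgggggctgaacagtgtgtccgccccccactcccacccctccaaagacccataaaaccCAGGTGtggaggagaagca
Twist2: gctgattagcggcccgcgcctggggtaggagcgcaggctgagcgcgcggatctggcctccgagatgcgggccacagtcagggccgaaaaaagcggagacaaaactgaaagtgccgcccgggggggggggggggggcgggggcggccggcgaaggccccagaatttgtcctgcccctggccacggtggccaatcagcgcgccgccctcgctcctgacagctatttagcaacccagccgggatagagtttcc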

How the data were processed

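Tumor RNA was sequenced in 6 libraries. The authors trimmed reads with cutadapt 2.9 and counted them with RSEM 1.3.1 on a Bowtie2 2.4.1 index of mm10, and deposited expected counts, which are estimated reads per gene without normalization. The TPM values that the authors deposited are divided by transcript length and scaled to a fixed sum, and the transcript lengths are RSEM's weighted means. FPKM was not used. Expected counts were rounded and tested in edgeR 4.0.16 (R 4.3.3) with TMM, filterByExpr (minimum count 10, minimum total 15) and 19427 genes tested. Each SE was taken as the log2 fold change over the square root of F. P-values measure the spread between these few tumors. Alternatives used DESeq2 1.42.0, limma 3.58.1 on log2(TPM + 1), other scalings and filters, the replicate number as a block, and each library left out. Profiles were compared on log2 CPM with a prior count of 2. From each list the 3 genes with the smallest p and some chosen by name are given. The genes and lists were chosen with earlier results of these data known. The study describes separate mice, which was followed except for DMHCA libraries 1 and 3, counted as 1 sample. Whether these came from 1 tumor was not tested. Coordinates are from GENCODE M21, which held 99.6% of the gene identifiers.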

Additional observations from a re-analysis of the deposited data

How the results depend on the processing

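Over the 17 alternatives, 169 values of the 10 genes were computed, 160 kept their direction, 9 turned, and 0 had an adjusted p under 0.05. Cdh2 gave no value on the log2(TPM + 1) scale, where it was below the filter. Vim, Cdh2, Twist2 and Esrp1 kept their direction in every alternative run. The count of genes with an adjusted p under 0.05 was 0 by edgeR (1478 at an unadjusted p under 0.05), 246 with DESeq2 on the 5 samples, 839 with DESeq2 on the 6 libraries and 16 with no filter on low counts. With each library left out it was 0. Without DMHCA library 2 a lone DMHCA sample is assumed to vary like the controls. On the log2(TPM + 1) scale the log2 fold changes of Cdh1, Epcam and Zeb1 were 0.12, 0.13 and 0.05, and those of Vim, Snai2 and Twist1 were -0.17, -0.19 and -0.06, against -0.48, -0.66 and -0.32 by edgeR. Zeb2, Twist2 and Esrp1 were at -0.39, -0.73 and 0.86 on that scale, against -0.42, -1.68 and 0.65. The median over all genes tested was 0.20 on that scale, against -0.03 by edgeR. With a library left out, the log2 fold change ranged from -0.30 to 0.02 for Cdh1, -0.33 to 0.10 for Epcam, -0.69 to 0.34 for Zeb1, -0.69 to 0.01 for Zeb2, -1.16 to 0.24 for Snai2, -0.59 to 0.02 for Twist1, -0.84 to -0.26 for Cdh2, -0.71 to -0.28 for Vim, -1.95 to -1.08 for Twist2 and 0.57 to 0.89 for Esrp1. The turned values came without control library 2 for Cdh1 and Epcam and without control library 3 for Zeb1, Zeb2, Snai2 and Twist1, and the cause was not tested. With the replicate number as a block on the 6 libraries, 0 genes had an adjusted p under 0.05 and 3207 an unadjusted p under 0.05 by edgeR, against 0 and 2912 without the block. The deviations of same-numbered libraries correlated at -0.0585, 0.342 and 0.359 across genes. Control library 3 correlated nearly as much with DMHCA library 1, at 0.346. Since DMHCA libraries 1 and 3 were nearly the same, these values do not establish a pairing. Counts of 22 to 140 per library limit the precision for Twist2, and those of 41 to 110 for Cdh2.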

Other observations

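The weighted transcript length that RSEM gave Zeb2, which follows the mix of its isoforms, varied between libraries. It was 5792, 4423 and 4814 bases in control libraries 1, 2 and 3 and 5805, 6602 and 5989 bases in DMHCA libraries 1, 2 and 3. Every DMHCA library lay above every control, narrowly so for DMHCA library 1 at 5805 against control library 1 at 5792 bases. The share of all genes whose lengths did not overlap is not given here, and the difference was not tested. For Zeb1 the lengths were 4925, 5482 and 5379 bases in the controls and 4801, 4868 and 5480 bases with DMHCA, which overlapped. Snai2, Twist1 and Twist2 had the same length in every library, at 2021, 1628 and 1329 bases. These lengths enter TPM but not CPM, and Zeb2 was chosen here after its lengths were seen.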
